A study of Homo sapiens with 24 samples.

Results

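Hyaluronan is made, bound and broken down by a small group of gene products, and 8 of these genes were followed here: the synthases HAS1, HAS2 and HAS3, the receptor CD44, the hyaluronan-degrading protein CEMIP, and the hyaluronidases HYAL1, HYAL2 and HYAL3. The genes were chosen by name and matched by symbol to the Ensembl identifiers of the count files, so that they were 8 of 62703 genes. They and the gene lists below were chosen with earlier results of these data known, which limits what their shares of called genes can show. All 8 were kept by a filter on low counts that left 16600 genes for testing, although HAS1 reached the cutoff of the filter in only 9 of 24 libraries, and in all 4 of a group only in WT Sor.

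Hyaluronan is a long, unsulfated chain of alternating glucuronic acid and N-acetylglucosamine that the synthases build at the plasma membrane and push out of the cell. In cartilage it is the backbone on which link protein and aggrecan assemble, and CD44 tethers these assemblies to the chondrocyte. HYAL2 at the cell surface and HYAL1 in lysosomes cut the chain, and CEMIP, also called HYBID or KIAA1199, is needed for its breakdown in fibroblasts and chondrocytes.

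RNA was sequenced from T/C-28a2 cells, an immortalized line of human chondrocytes, in 24 libraries that formed 6 groups of 4. Unedited, untransfected cells were kept for 7 days in isotonic medium (WT Ctr) or with 100 mM sorbitol, which raises the osmolarity (WT Sor). Unedited cells were transfected with a WNK2 expression plasmid for 48 h and then given the same media for 7 days (WNK2 trans Ctr and WNK2 trans Sor), and cells in which CRISPR/Cas9 had removed exon 2 of WNK2, an osmosensing kinase gene, were kept untransfected in both media (WNK2- Ctr and WNK2- Sor). The edited cells were grown out from a single cell, so that clone and genotype cannot be told apart, and the control for transfected cells was untransfected, so that WNK2 and the transfection cannot be told apart. Replicates were biological replicates of this 1 line, and the p-values measure the spread between them.

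The WNK2 counts went against the label WNK2 trans Ctr, and they were also low in WT Sor, whose label gives no WNK2 level. Normalized counts of WNK2 (counts scaled to a common library size) were 1441 to 3409 in the libraries labelled WT Ctr and 2245 to 3793 in those labelled WNK2 trans Sor, but 283 to 319 in those labelled WT Sor and 183 to 296 in those labelled WNK2 trans Ctr. The libraries labelled WNK2- Ctr held 388 to 417 and those labelled WNK2- Sor 311 to 419. WNK2 was thus 10.0-fold lower in the libraries labelled WNK2 trans Ctr than in WT Ctr (edgeR quasi-likelihood test, adjusted p = 3.88e-11), where a plasmid encoding it had been given. By the same test WNK2 was 8.33-fold lower in WT Sor than in WT Ctr (adjusted p = 1.52e-10). It was 12.05-fold higher in WNK2 trans Sor than in WNK2 trans Ctr (adjusted p = 7.92e-13). In the unedited groups sorbitol and the WNK2 level thus cannot be told apart. Group names below are therefore the labels, and every direction drawn between WT Sor, WNK2 trans Ctr and the other groups rests on them.

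The libraries held between 14153002 and 25664619 counts, and the 10 most abundant genes took 5.6% to 7.5% of them. Of 9 cartilage markers, SOX9 was listed at 0 in all 24 libraries, and the summed level of the list lay between 1612 and 1895 normalized counts in WT Ctr, between 1465 and 1589 in WT Sor, between 1159.7 and 1494 in WNK2 trans Ctr, between 1957 and 2846 in WNK2 trans Sor, between 335 and 355 in WNK2- Ctr and between 355 and 439 in WNK2- Sor. Most of that sum was HAPLN1, while COL2A1 averaged 82.6 ± 27.0 (SD, n = 4) in WT Ctr. Of the 6 cartilage markers tested, 4 were called lower in WNK2- Ctr than in WT Ctr, where 21.5% of all genes were. In WNK2 trans Sor against WT Sor HAPLN1 was called higher and ACAN (−1.89 on the log2 scale), MATN3 (−1.88), COMP (−1.83) and COL2A1 (−1.27) lower. Of all genes 16.1% were called higher there and 15.5% lower. Of 5 fibroblast markers THY1 was listed at 0 in every library. In WT Ctr COL1A1 averaged 53175 ± 9096, COL3A1 8210 ± 238, PDGFRA 18.7 ± 13.7 and COL1A2 7.17 ± 6.90. The sum of the list was thus nearly all COL1A1 and COL3A1. It was lowest in WNK2- Sor (16987 to 20547) and WNK2 trans Sor (19488 to 32901) and highest in WNK2 trans Ctr (96248 to 117949.8). Of 4 immune markers CD68 was listed at 0, and the sum was at most 403 in any library, mostly CD14, while that of 4 epithelial markers was at most 47.99. Of 4 endothelial markers none was at 0 throughout, and their sum lay between 662 and 776 in WT Ctr, between 1090.0 and 1231 in WT Sor, between 457 and 758 in WNK2 trans Ctr, between 1819 and 1952 in WNK2 trans Sor, between 446 and 533 in WNK2- Ctr and between 653 and 833 in WNK2- Sor. In WNK2- Ctr against WT Ctr PECAM1 was called lower (−1.37) and KDR (3.48), VWF (1.32) and CDH5 (0.36) higher. For a gene listed at 0 in every library, here and below, absent RNA and reads that were not counted cannot be told apart. The part of these markers in the results on the hyaluronan genes was not tested, and in bulk RNA fewer cells of a type and less RNA per cell cannot be told apart.

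CD44 and CEMIP were called in the same direction as each other in each transfected group. Both were lower in WNK2 trans Ctr than in WT Ctr and higher in WNK2 trans Sor than in WT Sor. Their promoter windows are shown because of this. Windows of 250 bases before to 50 bases after a RefSeq start (GRCh38.p14) were used for 7 of the 8 genes, with a second window for HYAL3. HAS2 was left out of the windows used, so its promoter was not searched. The CD44 window lies at chr11:35138921-35139220 and the CEMIP window at chr15:80779120-80779419, both on the plus strand. Each is around a RefSeq start that lies within the gene as GENCODE 29 places it. Capitals mark the TATA motif in CEMIP.
CD44: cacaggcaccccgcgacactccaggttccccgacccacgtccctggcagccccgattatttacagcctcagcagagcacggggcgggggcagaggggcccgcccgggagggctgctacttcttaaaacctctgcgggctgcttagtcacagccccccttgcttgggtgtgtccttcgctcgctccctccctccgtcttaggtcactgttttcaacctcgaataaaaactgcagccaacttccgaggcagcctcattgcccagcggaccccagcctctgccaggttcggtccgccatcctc
CEMIP: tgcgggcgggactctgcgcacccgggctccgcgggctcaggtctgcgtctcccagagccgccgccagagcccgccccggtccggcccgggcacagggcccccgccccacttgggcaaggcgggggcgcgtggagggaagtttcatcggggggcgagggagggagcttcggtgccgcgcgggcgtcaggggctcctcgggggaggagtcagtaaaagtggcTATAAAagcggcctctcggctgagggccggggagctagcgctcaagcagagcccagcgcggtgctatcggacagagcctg

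Each window was searched on both strands for 4 motifs, and no match of one overlapped a match of another in the windows printed. The TATA box was spelled TATAAA. The CEMIP window held it once, beginning 30 bases before the start, and 11.5% of 35116 windows of that length held it. The core motif of AP-1, a factor made of FOS and JUN proteins, was spelled TGANTCA, which was in none of the 8 windows of the hyaluronan genes and in 7.7% of all windows. A core shared by NFAT proteins, among them the tonicity-responsive factor NFAT5, was spelled TGGAAA and was in the HYAL1 window and in 1 HYAL3 window, against 20.7% of all windows. The NF-kB motif was in that same HYAL3 window, against 5.9% of all windows. None of the 4 was in the CD44 window. A match describes these letters and not a bound factor.

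HAS2 (ENSG00000170961, chr8:121612116-121641390, minus strand, positions from GENCODE 29 on GRCh38), the main synthase of mesenchymal cells, was the synthase that differed most between groups. Its normalized counts were 2169, 2895, 2711 and 2285 in the WT Ctr libraries and 4204, 3946, 4398 and 4052 in WT Sor. They were 9044, 7957, 6689 and 7732 in WNK2 trans Ctr and 1393, 1554, 1525 and 1349.7 in WNK2 trans Sor. In the edited cells they were 256, 282, 331 and 309.9 (WNK2- Ctr) and 194, 142, 176 and 175 (WNK2- Sor). The level was highest in WNK2 trans Ctr, then in WT Sor, WT Ctr and WNK2 trans Sor, followed by WNK2- Ctr and last WNK2- Sor, and no neighbouring groups in that order overlapped.

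Under sorbitol HAS2 was 1.65-fold higher in WT cells (log2 fold change 0.72, SE 0.107, adjusted p = 2.83e-05). In edited cells it was lower by 0.78 on the log2 scale (SE 0.117, adjusted p = 3.18e-05). The difference between these responses passed its own test (interaction −1.50, SE 0.159, adjusted p = 6.7e-07). HAS2 was 8.53-fold lower in WNK2- Ctr than in WT Ctr (log2 fold change −3.09, SE 0.118, adjusted p = 4.86e-16) and 24.2-fold lower in WNK2- Sor than in WT Sor (−4.59, SE 0.126, adjusted p = 1.64e-19). In the transfected cells it was 3.12-fold higher in the libraries labelled WNK2 trans Ctr than in WT Ctr (adjusted p = 6.98e-11) and 2.85-fold lower in those labelled WNK2 trans Sor than in WT Sor (adjusted p = 1.13e-10). It was 5.40-fold lower in WNK2 trans Sor than in WNK2 trans Ctr (adjusted p = 6.07e-15). The interaction with transfection was −3.15 (SE 0.154, adjusted p = 5.5e-14). Each of these calls held under every alternative that was run.

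HAS2-AS1, the antisense RNA of HAS2, shares 201 exon bases with it on the opposite strand, which is 4.8% of the exon bases of HAS2, and the counting was not stated to use strand. Its level was 37.4 to 58.4 normalized counts in WT Ctr and 10.8 to 24.1 in WNK2- Ctr, a fall of 2.79-fold (edgeR, adjusted p = 1.73e-05). In WT Sor it was 42.6 to 59.2, which overlapped WT Ctr (log2 fold change 0.01, adjusted p = 0.984), while HAS2 rose. In WNK2 trans Sor it was 39.1 to 71.9 against 52.8 to 65.9 in WNK2 trans Ctr (adjusted p = 0.396), while HAS2 fell.

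**Figure D1:**
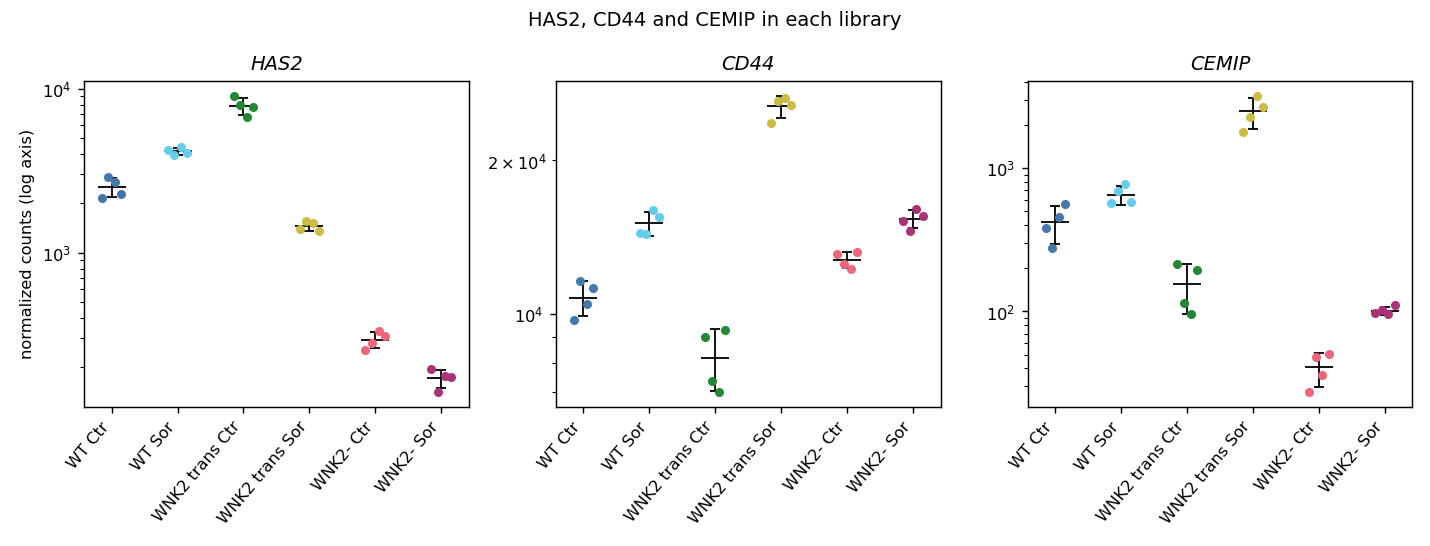
Normalized counts (log axis) of HAS2, CD44 and CEMIP in each of 24 libraries, grouped by label, with 1 point per library, the mean (bar) and SD (whiskers) of 4. HAS2 is highest in WNK2 trans Ctr and lowest in WNK2- Sor, and CEMIP and CD44 are both highest in WNK2 trans Sor.

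HAS3 (ENSG00000103044, chr16:69105564-69118719, plus strand) makes shorter chains and was far less abundant. Its normalized counts were 27.7, 34.3, 50.8 and 87.6 in WT Ctr, 55.5, 47.8, 57.8 and 53.1 in WT Sor, 73.4, 55.7, 68.6 and 65.5 in WNK2 trans Ctr and 34.9, 22.1, 48.6 and 46.8 in WNK2 trans Sor. In the edited cells they were 89.1, 117, 102 and 96.6 (WNK2- Ctr) and 67.6, 85.0, 68.6 and 72.9 (WNK2- Sor). The WNK2- Ctr libraries were all above the WT Ctr libraries, while WT Ctr itself spanned more than the range of WT Sor.

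HAS3 was 2.03-fold higher in WNK2- Ctr than in WT Ctr (log2 fold change 1.02, SE 0.251, adjusted p = 0.00196), opposite to HAS2. It fell 1.71-fold with sorbitol in the transfected cells (adjusted p = 0.0165), a call that ended without WNK2 trans Sor replicate 2 (−0.59, adjusted p = 0.0709). Its other comparisons did not pass, with log2 fold changes of 0.11 for WT Sor against WT Ctr, 0.45 for WNK2- Sor against WT Sor, 0.40 for WNK2 trans Ctr against WT Ctr, −0.49 for WNK2 trans Sor against WT Sor and −0.46 for WNK2- Sor against WNK2- Ctr. The third of these passed without WT Ctr replicate 4 (0.80, adjusted p = 0.0262), and WNK2- Sor passed against WT Sor (0.44, adjusted p = 0.0252) and against WNK2- Ctr (−0.46, adjusted p = 0.0226) in fits of the compared groups alone. The interaction of transfection and sorbitol was −0.88 for HAS3 (adjusted p = 0.0649) and passed in 5 of 24 alternatives. Those were DESeq2, the replicate block, and leaving out WT Ctr replicate 4 or WNK2 trans Sor replicate 3 or 4. The interaction of genotype and sorbitol was −0.56 (adjusted p = 0.35) and passed without WT Ctr replicate 4 (−0.98, adjusted p = 0.0426). HAS3 shares 365 exon bases, 6.9% of its own, with CHTF8 on the opposite strand, which was listed at 0 counts in every library.

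HAS1 (ENSG00000105509, chr19:51713112-51723994, minus strand), the third synthase, was near the detection limit. Its raw counts were 10, 0, 7 and 7 in WT Ctr, 12, 12, 11 and 19 in WT Sor, 8, 13, 0 and 12 in WNK2 trans Ctr, 12, 8, 5 and 19 in WNK2 trans Sor, 2, 5, 2 and 1 in WNK2- Ctr and 7, 11, 13 and 4 in WNK2- Sor. A count of 0 allows up to 3 counts, or 3.55 normalized counts in the WT Ctr library and 3.37 in the WNK2 trans Ctr library, for counting error only. It was not called in any comparison. The difference of WNK2- Ctr from WT Ctr, −1.64 on the log2 scale (adjusted p = 0.103), passed only when WT Ctr replicate 2 was left out (−2.05, adjusted p = 0.0272).

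Per kb of exon, HAS2 made up 97.9% ± 1.13 (SD, n = 4) of the summed synthase level in WT Ctr, 98.4% ± 0.172 in WT Sor, 99.1% ± 0.0916 in WNK2 trans Ctr and 96.6% ± 1.20 in WNK2 trans Sor. In the edited cells its share was 77.7% ± 2.93 in WNK2- Ctr and 70.1% ± 5.63 in WNK2- Sor, and HAS3 accounted for 21.2% ± 2.17 and 24.1% ± 4.07. The lowest HAS2 share in an unedited library was 95.1% and the highest in an edited library 79.9%, so that the groups did not overlap. With the longest coding sequence as the length, the HAS2 share was 74.0% in WNK2- Ctr and 67.9% in WNK2- Sor.

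**Figure D2:**
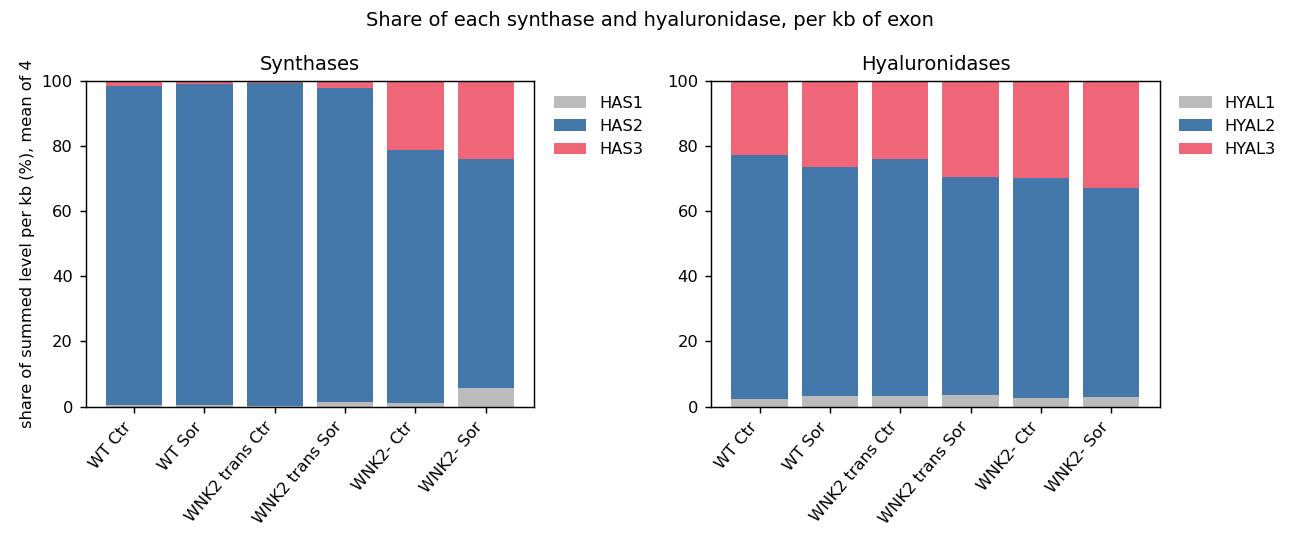
Share of each synthase (left) and each hyaluronidase (right) in the summed level per kb of exon, in percent, as means of 4 libraries in each labelled group. HAS2 holds nearly the whole synthase level in unedited cells and about 70% to 78% in WNK2- cells, while the order HYAL2, HYAL3, HYAL1 is the same in all 6 groups.

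CD44 (ENSG00000026508, chr11:35138870-35232402, plus strand) was the most abundant of the 8 genes per kb of exon in every group but WNK2 trans Ctr. Its normalized counts were 9712, 11566, 10448 and 11221 in WT Ctr, 14384, 14313, 15955 and 15497 in WT Sor, 9011, 7376, 7017 and 9271 in WNK2 trans Ctr and 23716, 26153, 26550.0 and 25741 in WNK2 trans Sor. In the edited cells they were 13072, 12519.9, 12263 and 13206 (WNK2- Ctr) and 15222, 14546, 16082 and 15578 (WNK2- Sor). The order was WNK2 trans Sor, WNK2- Sor, WT Sor, WNK2- Ctr, WT Ctr and WNK2 trans Ctr, and WNK2- Sor and WT Sor overlapped. Per kb, the libraries labelled WNK2 trans Ctr had more HAS2 (102 ± 12.6 CPM) than CD44 (44.5 ± 6.19 CPM).

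CD44 was higher with sorbitol in each background. It was 1.40-fold higher in WT Sor than in WT Ctr (log2 fold change 0.49, SE 0.0844, adjusted p = 0.000178) and 3.13-fold higher in WNK2 trans Sor than in WNK2 trans Ctr (1.64, SE 0.0864, adjusted p = 6.77e-14). In edited cells it was 1.20-fold higher (0.27, SE 0.0842, adjusted p = 0.032), a call that ended in 9 of 16 alternatives with adjusted p between 0.0037 and 0.138 over all of them. Those 9 left out any 1 library of the 2 groups except WNK2- Sor replicate 2 (adjusted p 0.0518 to 0.0931), dropped the filter on low counts (0.138), or corrected for GC content and length (0.0592). The response in transfected cells differed from that in WT cells (interaction 1.16, SE 0.12, adjusted p = 4e-08), and the difference between edited and WT cells did not pass (−0.22, adjusted p = 0.271).

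In isotonic medium CD44 was 1.19-fold higher in WNK2- Ctr than in WT Ctr (log2 fold change 0.25, SE 0.0842, adjusted p = 0.0193), which did not hold without WT Ctr replicate 1 (0.20, adjusted p = 0.0792), in a fit of these groups alone (0.25, adjusted p = 0.0553) or after correction for GC content and length (0.11, adjusted p = 0.199). Under sorbitol edited and WT cells did not differ by the test (0.03, 95% interval −0.14 to 0.20, adjusted p = 0.796). CD44 was 1.31-fold lower in the libraries labelled WNK2 trans Ctr than in WT Ctr (adjusted p = 0.00208), a call lost in a fit of these groups alone (−0.40, adjusted p = 0.107), and 1.70-fold higher in WNK2 trans Sor than in WT Sor (adjusted p = 1.68e-07).

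CEMIP (ENSG00000103888, chr15:80779343-80951776, plus strand) had the largest single fold change among the pairwise tests of CEMIP, CD44 and the hyaluronidases. Its normalized counts were 383, 276, 454 and 567 in WT Ctr, 571, 693, 771 and 578 in WT Sor, 215, 114, 96.7 and 194 in WNK2 trans Ctr and 1785, 2289.6, 3208 and 2699 in WNK2 trans Sor. In the edited cells they were 27.5, 48.3, 36.2 and 50.8 (WNK2- Ctr) and 98.3, 102, 95.6 and 110.3 (WNK2- Sor). The libraries labelled WNK2 trans Sor stood above all others and those labelled WNK2- Ctr below all others, and WNK2 trans Ctr and WNK2- Sor overlapped.

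CEMIP was 16.2-fold higher in WNK2 trans Sor than in WNK2 trans Ctr (log2 fold change 4.02, SE 0.243, adjusted p = 9.46e-13) and 2.48-fold higher in WNK2- Sor than in WNK2- Ctr (1.31, SE 0.27, adjusted p = 0.00123). In WT cells the rise with sorbitol was 1.56-fold (0.64, SE 0.218, adjusted p = 0.0342), and it did not pass without WT Ctr replicate 1 (0.60, adjusted p = 0.0649) or replicate 2 (0.49, adjusted p = 0.133), or without WT Sor replicate 2 (0.61, adjusted p = 0.077) or replicate 3 (0.56, adjusted p = 0.108). The difference between edited and WT cells in this response did not pass (0.67, adjusted p = 0.244), whereas that between transfected and WT cells did (3.38, SE 0.318, adjusted p = 8.66e-09).

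CEMIP was 10.2-fold lower in WNK2- Ctr than in WT Ctr (log2 fold change −3.36, SE 0.262, adjusted p = 1.62e-10) and 6.43-fold lower in WNK2- Sor than in WT Sor (−2.69, SE 0.237, adjusted p = 9.15e-10). It was 2.73-fold lower in the libraries labelled WNK2 trans Ctr than in WT Ctr (adjusted p = 8.7e-05) and 3.82-fold higher in those labelled WNK2 trans Sor than in WT Sor (adjusted p = 2.1e-07). HAS2 thus moved the opposite way to CEMIP and CD44 in the transfected groups, up in WNK2 trans Ctr and down in WNK2 trans Sor. MESD shares 224 exon bases with CEMIP on the opposite strand, 2.94% of those of CEMIP, with 1436 to 2615 counts per library.

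HYAL2 (ENSG00000068001, chr3:50317790-50322906, minus strand), the cell-surface enzyme, was the main hyaluronidase. Its normalized counts were 1449, 931, 1017 and 1297 in WT Ctr, 1302, 1350.0, 1272 and 1339 in WT Sor, 1301, 1387, 1785 and 1366 in WNK2 trans Ctr and 1295, 614, 739.8 and 812 in WNK2 trans Sor. In the edited cells they were 1022, 970.4, 796 and 895 (WNK2- Ctr) and 804, 1073, 874 and 1054 (WNK2- Sor). In WNK2 trans Sor, replicate 1 lay far above the other 3 libraries, near the level of WT Sor.

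HYAL2 was 1.69-fold lower in WNK2 trans Sor than in WNK2 trans Ctr (log2 fold change −0.76, SE 0.171, adjusted p = 0.00076), and the interaction with transfection was −0.92 (SE 0.241, adjusted p = 0.00419). It was 1.52-fold lower in WNK2 trans Sor than in WT Sor (−0.61, adjusted p = 0.00842), where the libraries overlapped, and 1.38-fold lower in WNK2- Sor than in WT Sor (−0.47, adjusted p = 0.0261). After correction for GC content and length the first of these was −0.29 and still passed, the interaction was −0.15 (adjusted p = 0.334) and the last differences were −0.11 (adjusted p = 0.3) and −0.12 (adjusted p = 0.2). The same correction made HYAL2 pass in WNK2- Ctr against WT Ctr (−0.41, adjusted p = 0.000136, against −0.35 and 0.103 without it). The WNK2- Sor difference also failed without WT Sor replicate 2 (−0.46, adjusted p = 0.0526), WNK2- Sor replicate 1 (−0.40, adjusted p = 0.0911) or WNK2- Sor replicate 3 (−0.43, adjusted p = 0.0692). TUSC2 shares 509 exon bases with HYAL2 on the same strand, 11.2% of those of HYAL2, with 631 to 1490 counts per library.

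HYAL1 (ENSG00000114378, chr3:50299889-50312381, minus strand), the lysosomal enzyme, ranged from 15.4 to 57.5 normalized counts over all libraries, and HYAL3 (ENSG00000186792, chr3:50292831-50299468, minus strand), whose role is less settled, from 93.6 to 241. The group means of HYAL1 ran from 25.4 ± 4.38 in WNK2- Ctr to 42.5 ± 12.5 in WNK2 trans Ctr, and neither gene passed in a pairwise comparison. Without WNK2 trans Sor replicate 2, however, HYAL1 passed against WT Sor (−1.07, adjusted p = 0.0119, from −0.61) and against WNK2 trans Ctr (−1.08, adjusted p = 0.00601, from −0.63), and the latter also passed without WNK2 trans Ctr replicate 3 (−0.78, adjusted p = 0.0489). The interaction of transfection and sorbitol was −1.28 for HYAL1 (SE 0.443, adjusted p = 0.0268), and this call was lost in 7 of 24 alternatives, where adjusted p was between 0.0503 and 0.155. Of those 7, 5 left out 1 library: WT Ctr replicate 2 (−1.10), WT Sor replicate 4 (−1.23), WNK2 trans Ctr replicate 4 (−1.13), WNK2 trans Sor replicate 3 (−1.17) or WNK2 trans Sor replicate 4 (−1.09). For HYAL3 it was −0.77 (adjusted p = 0.0596), and it passed in 8 of 24 alternatives (adjusted p 0.0224 to 0.0495): DESeq2, no filter, the replicate block, and without WT Ctr replicate 1 or 4, WNK2 trans Ctr replicate 2, or WNK2 trans Sor replicate 1 or 4. Per kb of exon HYAL2 held 74.9% ± 4.07 (SD, n = 4) of the summed hyaluronidase level in WT Ctr and 64.3% ± 2.72 in WNK2- Sor, and the order HYAL2, HYAL3, HYAL1 was the same in every group. HYAL3 shares 248 exon bases, 12.22% of its own, with NAA80 on the same strand, which was listed at 0 counts in every library. It shares 43 (2.12%) with IFRD2 on the same strand, with 1350 to 2979 counts per library.

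**Figure D3:**
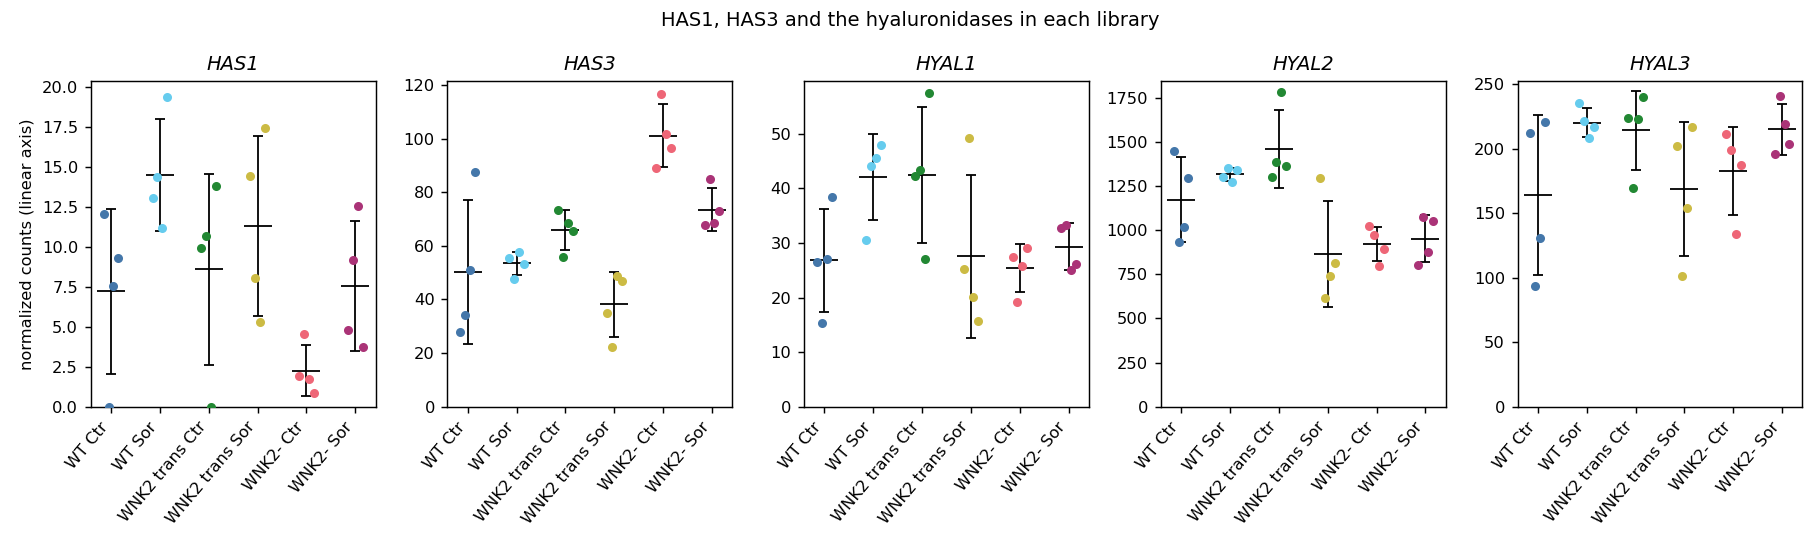
Normalized counts (linear axis from 0) of HAS1, HAS3, HYAL1, HYAL2 and HYAL3 in each of 24 libraries, grouped by label, with 1 point per library, the mean (bar) and SD (whiskers) of 4. HAS3 is highest in WNK2- Ctr, and in WNK2 trans Sor replicate 2 stands above the other 3 libraries for HYAL1 and replicate 1 does for HYAL2.

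Over the 8 genes, 3 were called in WT Sor against WT Ctr, each higher (HAS2, CD44 and CEMIP), where 24.1% of the 16600 genes were called, 11.4% higher and 12.7% lower. In WNK2- Ctr against WT Ctr 4 were called, 2 higher and 2 lower, where 42.1% of genes were (20.7% higher, 21.5% lower). In WNK2- Sor against WT Sor 3 were called, each lower, against 46.3% of genes (23.7% higher, 22.7% lower). These shares of the 8 genes were near the background for the comparisons of edited cells, and the comparisons with WT Ctr or with WT Sor share those control libraries.

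In WNK2 trans Ctr against WT Ctr 3 were called, 1 higher and 2 lower, where 12.5% of genes were (5.57% higher, 6.98% lower). In WNK2 trans Sor against WT Sor 4 were called, 2 higher and 2 lower, against 31.7% (16.1% higher, 15.5% lower). With sorbitol in edited cells 3 were called, 2 higher and 1 lower, against 14.9% (8.25% higher, 6.64% lower), and in transfected cells 5 were, 2 higher and 3 lower, against 48% (24.3% higher, 23.7% lower). In the interaction of genotype and sorbitol HAS2 alone was called, lower, against 8.65% (3.99% higher, 4.66% lower), and in that of transfection and sorbitol 5 were, 2 higher and 3 lower, against 35.5% (18.1% higher, 17.4% lower).

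**Figure D4:**
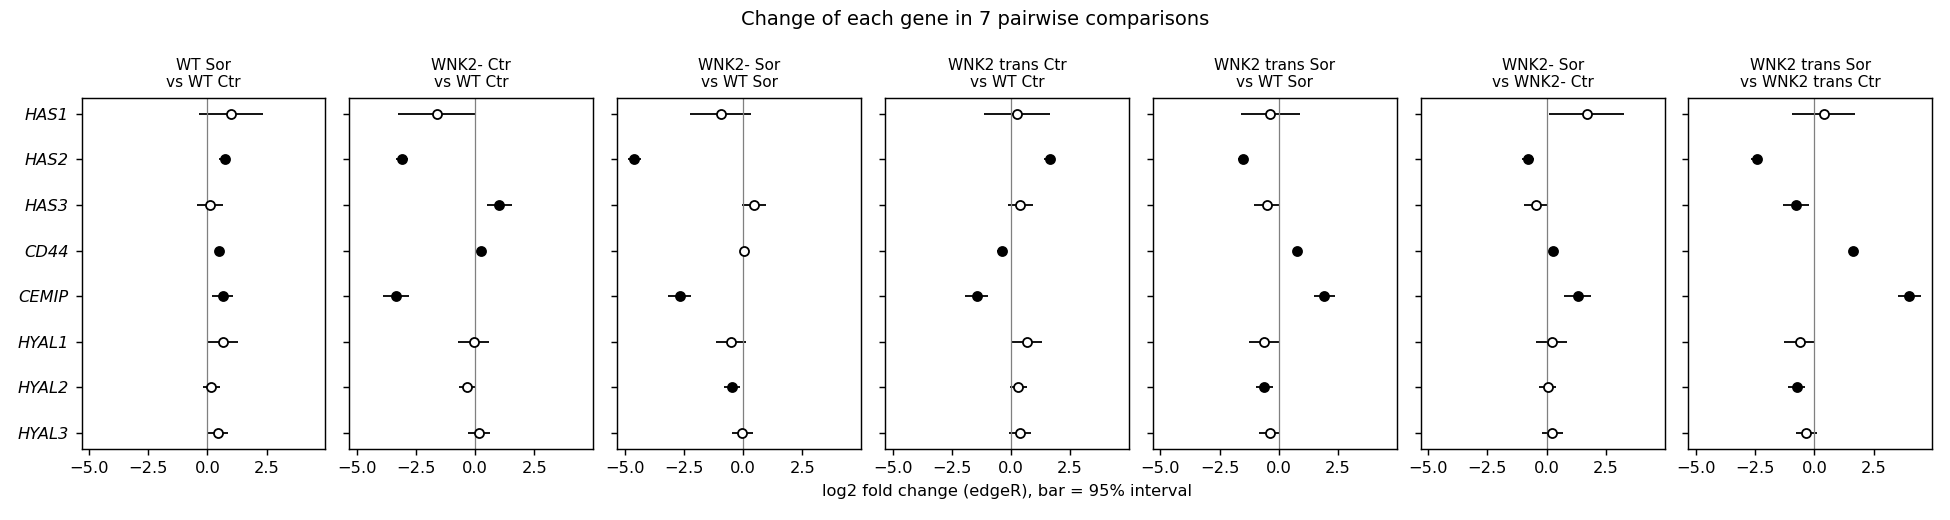
Log2 fold change of each gene in 7 pairwise comparisons of labelled groups, with 95% intervals, and filled points for an adjusted p under 0.05 (edgeR). The largest changes over the 7 comparisons are those of CEMIP and HAS2. They move in the same direction in edited cells against WT cells. They move in opposite directions in the comparisons of transfected cells and in WNK2- Sor against WNK2- Ctr. In WT Sor against WT Ctr and in WNK2- Sor against WNK2- Ctr the point furthest out is HAS1, which was not called.

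Of 7 enzymes that supply the sugar nucleotides for hyaluronan, 4 were higher in WNK2 trans Sor than in WT Sor, where 16.1% of all genes were, with a list median of 0.22 on the log2 scale against 0.01 for all genes. UAP1, which makes UDP-N-acetylglucosamine, was higher there by 0.80 (adjusted p = 6.34e-09) and by 0.63 in WNK2- Ctr against WT Ctr (adjusted p = 1.26e-07). GFPT2, which makes glucosamine-6-phosphate, rose by 0.67 in WNK2 trans Sor against WT Sor (adjusted p = 5.61e-08) from 3981 ± 88.5 to 6323 ± 356 normalized counts (SD, n = 4). UGDH, the dehydrogenase that makes UDP-glucuronic acid, was 0.62 higher in WNK2- Sor than in WT Sor (adjusted p = 8.7e-07). In WT Sor against WT Ctr 3 of the 7 were lower (UGP2, GNPNAT1 and UAP1, −0.40 to −0.23), against 12.7% of all genes, with a list median of −0.13 against 0.04 for all genes.

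Of 16 hyaluronan-binding matrix proteins 8 were tested, and 5 of these were lower in WNK2- Ctr than in WT Ctr, where 21.5% of all genes were, with a median of −1.26 against 0.00 for all genes. VCAN (versican), an extracellular proteoglycan, went from 194 ± 56.9 normalized counts in WT Ctr to 5.64 ± 3.54 in WNK2- Ctr (log2 fold change −5.05, adjusted p = 7.45e-12). HAPLN1, the link protein that locks aggrecan to hyaluronan, fell from 1488 ± 195 to 253 ± 14.8 (−2.56, adjusted p = 8.04e-14), and ACAN, aggrecan itself, from 59.7 ± 28.2 to 13.1 ± 2.09 (−2.17, adjusted p = 7.53e-05). TNFAIP6, which carries heavy chains to hyaluronan, and HAPLN3 fell by 1.02 and 0.86. In WNK2 trans Sor against WT Sor 6 of the 8 were called, 2 higher and 4 lower, against 31.7% of all genes, and HAPLN1 was higher (0.82, adjusted p = 1.12e-05) while ACAN was lower (−1.89, adjusted p = 0.000179). VCAN rose with sorbitol in WT cells by 1.33 (adjusted p = 0.000102), as did ACAN by 0.90 (adjusted p = 0.0469).

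Of 7 other hyaluronan receptors 4 were tested, and LYVE1 and TLR4 were listed at 0 in every library. In WNK2- Ctr against WT Ctr 3 of the 4 were called, where 42.1% of all genes were called. STAB1 (2.32) and LAYN (0.35) were higher and TLR2 (−2.07) lower. STAB1 and TLR2 had few counts, with means of 4.79 and 20.3 normalized counts in WT Ctr. LAYN (layilin) was higher in WNK2- Sor than in WNK2- Ctr (0.78, adjusted p = 3.99e-05) and than in WT Sor (0.99, adjusted p = 2.44e-07), and HMMR, which also marks dividing cells, was lower with sorbitol in WT cells (−0.62, adjusted p = 0.00361). Among the further breakdown genes, CEMIP2, a relative of CEMIP, was higher in WT Sor than in WT Ctr (0.87, adjusted p = 2.82e-05), and GUSB, a lysosomal enzyme, was lower (−0.46, adjusted p = 0.00341).

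Of 9 genes that act on CD44, all were tested. In WNK2- Ctr against WT Ctr 4 were called, 2 higher and 2 lower, where 42.1% of all genes were called. MSN (moesin), which links CD44 to actin, and NF2 (merlin), which binds its tail, were higher in WNK2- Ctr than in WT Ctr, by 0.83 (adjusted p = 3.73e-10) and 1.04 (adjusted p = 9.3e-09), while the sheddase gene ADAM17 (−0.63) and the splicing factor gene ESRP1 (−1.16) were lower. In WNK2 trans Sor against WT Sor 5 were called, 3 higher and 2 lower, where 31.7% of all genes were called. MMP14, which can cut CD44 at the surface, was lower there (−0.69, adjusted p = 0.00191), as was ESRP1 (−0.74). EZR (ezrin) was higher (0.53, adjusted p = 0.000104), as were MSN (0.40) and NF2 (0.37). The list median was 0.06 in WNK2- Ctr against WT Ctr and 0.07 in WNK2 trans Sor against WT Sor.

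Genes within 1 Mb gave a background for position. For the 13 tested genes near CEMIP the median difference on the log2 scale was 0.38 between WNK2- Ctr and WT Ctr and 0.45 in WNK2 trans Sor against WNK2 trans Ctr, where CEMIP itself was −3.36 and 4.02. Those near CD44 (11) had medians of 0.26 and 0.47 against 0.25 and 1.64 for CD44, and those near HAS3 (24) 0.30 and 0.12 against 1.02 and −0.78 for HAS3. HAS2 had 3 tested neighbours, HAS2-AS1 among them, with a median of −1.48 in WNK2- Ctr against WT Ctr (2 lower, 1 higher) and −0.90 in WNK2- Sor against WT Sor (2 lower, 1 higher), where HAS2 was −3.09 and −4.59. The 3 hyaluronidase genes lie within 1 cluster, and the 40 genes near HYAL2 had a median of −0.10 in WNK2 trans Sor against WNK2 trans Ctr, where HYAL2 was −0.76.

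The genes most like each member were read as a description, since the 24 libraries fall into 6 groups and differences between groups enter each correlation. HAS2 was closest to SPRY1 (Pearson r = 0.993), TRIB2 (0.990) and LIPG (0.990), and CEMIP to PDP1 (0.968), PARD6B (0.964) and IL6 (0.958). CD44 was closest to NTM (0.958), SH3RF3 (0.956) and LPXN (0.948), and HYAL2 to B3GAT3 (0.969), LTBR (0.966) and DPP7 (0.961). HAS3 was closest to NOTCH1 (0.881), ANKRD52 (0.873) and DAGLA (0.855). The closest gene to HYAL3 was TOR4A (0.884), and the closest genes were less alike for HAS1 (ZSWIM8, 0.753) and HYAL1 (FOXN3, 0.717). Ranking by Spearman correlation kept 1 of the 3 closest genes for HAS1, HAS2, CD44 and CEMIP, 2 for HAS3 and HYAL2 and none for HYAL1 and HYAL3.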

How the data were processed

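Poly(A)-enriched libraries were made from total RNA of 24 cultures. The authors deposited raw read counts per Ensembl gene identifier without normalization; the submitters' processing notes name FastQC 0.11.9, HISAT2 2.2.1, HTSeq 2.0.2, DESeq2 1.38.3 and GRCh38, with no annotation release. Of 62703 identifiers 62625 had a symbol and 58279 were in GENCODE 29 (GRCh38), the source of positions and exon lengths. Groups followed the labels.

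In R 4.3.3, genes passing filterByExpr of edgeR 4.0.16 (count of at least 10, total of at least 15) were given TMM factors, and 6 group means were fitted by quasi-likelihood. Contrasts gave 7 pairwise comparisons and 2 interactions, adjusted by Benjamini-Hochberg over 16600 genes, called under 0.05. Normalized counts are counts over effective library size times its mean. The fit was tested on simulated data. The genes described were all 8 members, WNK2, called genes of the pathway lists and the 3 genes most correlated with each member. 1 gene of the list of further breakdown genes is not reported here. Members and lists were chosen with earlier results of these data known. Alternatives were DESeq2 1.42.0, RLE factors, other filters, the compared groups alone, the replicate block, thinning, each library left out, and, chosen after seeing the data, a correction for GC content and length (96.3% of genes had both). The limits given for a count of 0 cover counting error only.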

Additional observations from a re-analysis of the deposited data

Results flagged for a closer look

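The response to sorbitol differed between backgrounds for 5 of the 8 genes, by the edgeR test of the difference itself. Over all genes 35.5% were called in the interaction with transfection, which held these 5, and 8.65% in that with genotype, which held HAS2. HAS2 rose with sorbitol in WT cells (0.72 on the log2 scale) and fell in edited cells (−0.78), a difference of −1.50 with an adjusted p of 6.7e-07. It fell by 2.43 in transfected cells, a difference from WT cells of −3.15 (adjusted p = 5.5e-14).

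CD44 and CEMIP rose more in transfected than in WT cells, by 1.16 (adjusted p = 4e-08) and 3.38 (adjusted p = 8.66e-09). HYAL1 and HYAL2 differed the other way, by −1.28 (adjusted p = 0.0268) and −0.92 (adjusted p = 0.00419), and the call of HYAL1 was lost in 7 of 24 alternatives. The value for HYAL2 was −0.15 after correction for GC content and length. All 6 differences use the libraries labelled WT Sor, and the 5 with transfection also those labelled WNK2 trans Ctr. WNK2 counts were low in both groups, against the label of WNK2 trans Ctr. No group of 4 libraries held a single library beyond Dixon's 95% critical value for 4, over 48 groups of the 8 genes.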

How the results depend on the processing

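The number of genes called moved by over 1.5 times in a few comparisons. After correction for GC content and length it was 6182 in place of 4008 for WT Sor against WT Ctr, 3186 in place of 2082 for WNK2 trans Ctr against WT Ctr, 4480 in place of 2473 for WNK2- Sor against WNK2- Ctr, and 2407 in place of 1436 for the interaction of genotype and sorbitol. A fit of the compared groups alone gave 747 for WNK2 trans Ctr against WT Ctr and 4824 for WNK2- Sor against WNK2- Ctr. Leaving out 1 library gave 849 to 1908 genes for the interaction of genotype and sorbitol, with 849 without WNK2- Sor replicate 3 and 944 without WNK2- Ctr replicate 2. Of the hyaluronan genes, 5 in place of 3 were called for WNK2- Sor against WT Sor in a fit of those groups alone, 3 in place of 5 for the interaction with transfection after the GC and length correction, and 1 to 2 for the interaction with genotype when 1 library was left out. The cause was not tested.

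Directions turned only for differences that had not been called. After the GC and length correction these were HAS3 (−0.0087) and HYAL2 (−0.15) in WT Sor against WT Ctr, CD44 (−0.073) and HYAL3 (0.15) in WNK2- Sor against WT Sor, HAS1 (0.29) in WNK2 trans Sor against WT Sor, HYAL2 (0.28) and HYAL3 (0.0094) in the interaction with genotype, and HAS1 (0.24) in that with transfection; with no filter, CD44 (−0.0072) in WNK2- Sor against WT Sor. With 1 library left out, HAS3 ran from −0.085 to 0.51 in WT Sor against WT Ctr, HYAL1 from −0.27 to 0.14 and HYAL3 from −0.039 to 0.33 in WNK2- Ctr against WT Ctr, HYAL3 from −0.095 to 0.0086 in WNK2- Sor against WT Sor, HAS1 from −0.15 to 0.66 in WNK2 trans Ctr against WT Ctr, HYAL2 from −0.021 to 0.12 in WNK2- Sor against WNK2- Ctr, and HAS1 from −0.0049 to 0.67 in WNK2 trans Sor against WNK2 trans Ctr.

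The replicate numbers were not stated to pair the libraries, and the correlations of deviations from group means do not settle whether they did. Same-numbered libraries of different groups correlated at −0.29 to 0.46 (median 0.013, 60 pairs). Differently numbered ones correlated at −0.32 to 0.39 (median 0.0011, 180 pairs), and 11 of 24 libraries correlated best with their own number. With the replicate block, the hyaluronan genes called for the interaction with transfection were 7 in place of 5, with HAS3 (−0.95, adjusted p = 0.0492) and HYAL3 (−0.83, adjusted p = 0.029) added, and the counts of the other 8 comparisons stayed as they were. Thinning all libraries to the smallest total, and RLE factors, changed no direction and no call among the 72 combinations of gene and comparison. Fewer than 20 counts for HAS1 in each library limit what its comparisons can show.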
